A study of Mus musculus with 2 samples.

Results

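The genes described here are Pparg, its binding partner Rxra and 4 genes of fatty acid handling that are known to be regulated by PPAR receptors, namely Plin2, Cpt1a, Fabp5 and Cd36. All probe sets annotated to 1 of these 6 genes and to no other were taken, which gave 13 probe sets of 45037 on the array and 6 of 18193 named genes. They were compared between IL-5+ memory T helper 2 (Th2) cells, 1 array, and IL-5- memory Th2 cells, 1 array. Both fractions came from BALB/c splenic CD4 T cells with the DO11.10 T cell receptor transgene, which recognises an ovalbumin peptide. The cells had been kept for 6 days with the peptide, 25 U/ml IL-2 and 100 U/ml IL-4, transferred into BALB/c nu/nu mice, which lack a thymus and have few T cells of their own, and recovered from the spleen 30 days later. A flow sorter then separated the IL-5+ from the IL-5- fraction. The labels do not say how many recipient mice were used or whether cells were pooled. They also do not say whether or how the cells were stimulated before the sort, or how they were stained. The genes were chosen with the signals of these same 2 arrays in view, so their values are a description. With 1 array per group there is no replicate, no test and no p-value, and each ratio compares these RNA samples, not the cell types in general.

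PPARγ, the product of Pparg, is a nuclear receptor that is activated by fatty acids and their derivatives. It binds DNA as a dimer with a retinoid X receptor such as RXRα, at a direct repeat of a short hexamer with 1 base between the copies, and switches on genes for the uptake, storage and burning of fat. It is best known from adipocytes and macrophages, and in T cells it is known to be expressed in Th2 cells and to promote their effector function. The 4 partner genes stand at successive steps of lipid handling. CD36 takes up fatty acids at the cell surface, FABP5 carries them in the cytosol, perilipin 2 (Plin2) coats the lipid droplets that store them, and CPT1A, the rate-limiting enzyme of mitochondrial fatty acid oxidation, attaches them to carnitine for import into mitochondria.

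Of the 6 genes, 5 have a promoter entry in the RefSeq table of GRCm38.p6, with 8 start sites in all (3 for Pparg and 2 for Rxra). Fabp5 has none. Each entry spans 300 bases, 250 before and 50 after the start. The bases before the first Pparg start and before those of Plin2 and Cpt1a are shown because these 3 genes gave the higher signals in IL-5+ cells. Capitals mark the hexamer AGGTCA, or its complement TGACCT where the hexamer lies on the other strand. The windows are chr6:115360894-115361143 (plus strand) for Pparg, chr4:86670060-86670309 (minus strand) for Plin2 and chr19:3323051-3323300 (plus strand) for Cpt1a, each written 5′ to 3′ in the direction of the gene.
Pparg: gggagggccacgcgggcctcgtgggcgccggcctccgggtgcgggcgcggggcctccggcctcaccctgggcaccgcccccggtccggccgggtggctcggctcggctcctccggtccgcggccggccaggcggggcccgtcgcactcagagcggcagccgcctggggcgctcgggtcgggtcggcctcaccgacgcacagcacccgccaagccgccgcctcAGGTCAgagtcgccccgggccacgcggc
Plin2: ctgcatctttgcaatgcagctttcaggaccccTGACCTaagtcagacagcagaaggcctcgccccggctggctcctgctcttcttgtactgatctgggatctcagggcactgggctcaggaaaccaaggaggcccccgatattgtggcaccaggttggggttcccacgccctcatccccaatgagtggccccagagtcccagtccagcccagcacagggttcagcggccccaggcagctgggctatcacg
Cpt1a: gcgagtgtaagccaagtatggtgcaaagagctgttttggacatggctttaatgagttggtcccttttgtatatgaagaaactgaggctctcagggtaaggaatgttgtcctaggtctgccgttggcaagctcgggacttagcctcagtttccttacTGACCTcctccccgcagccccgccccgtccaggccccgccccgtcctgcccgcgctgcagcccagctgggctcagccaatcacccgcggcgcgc
The hexamer was searched on both strands and was found in 6 of the 8 member promoters, which belong to 5 genes. It occurs in 16.3% of all 32851 promoters of that length, and in 18.1% of the 27025 genes they belong to. The members were chosen as PPAR genes, and the start sites of 1 gene are not independent. Nothing is therefore read from the difference, here or for the repeat below. The complete repeat AGGTCANAGGTCA was found exactly in none of the 8, and in 13 of all promoters (0.0396%). With up to 2 mismatches in its 12 fixed bases, which overlaps the search for the hexamer, it was found in 3 of the 8 member promoters and in 3.86% of all. These matches follow in the direction of the motif, with matching bases in capitals and the spacer base and mismatches in lower case. They lie at chr4:86670272-86670284 for Plin2, chr2:27709217-27709229 for Rxra and chr5:17835947-17835959 for Cd36, all reading on the plus strand.
Plin2: AGGTCAggGGTCc
Rxra: tGGTCAtAGGcCA
Cd36: AaGTCAgAGGcCA
The genes with a near match in this window were therefore 1 with a large ratio (Plin2), 1 with a small one (Rxra) and 1 below the range of measurement (Cd36). A match of letters is a description and not a binding site, and binding was not measured.

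Signals are the deposited linear intensities. A floor was set at 36.3, the signal that 40% of all probe set signals stayed below, and a ratio was formed only where a probe set exceeded it on 1 or both arrays. Each gene was represented by its brightest probe set. Of the 6 genes, 5 had a ratio and 1, Cd36, had none. Of the 5, 3 (Pparg, Plin2 and Cpt1a) reached a 2-fold higher signal in IL-5+ cells, 0 reached a 2-fold lower one and 2 (Rxra and Fabp5) differed by less than 2-fold. Over all 13133 named genes above the floor, 374 (2.85%) reached 2-fold in the higher and 526 (4.01%) in the lower direction, and because the genes were chosen on this contrast nothing is read from the difference. The only error these data hold is the disagreement between probe sets of 1 gene. The SD of their log2 ratios was 0.51 at mean signals of 36.3 to 112.8 (485 genes), 0.40 from 112.8 to 500 (2454 genes), 0.27 from 500 to 2000 (1633 genes) and 0.19 above 2000 (620 genes). It leaves out the spread between cell preparations. In sorted bulk RNA, more cells that carry a transcript and more transcript per cell cannot be told apart.

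**Figure D1:**
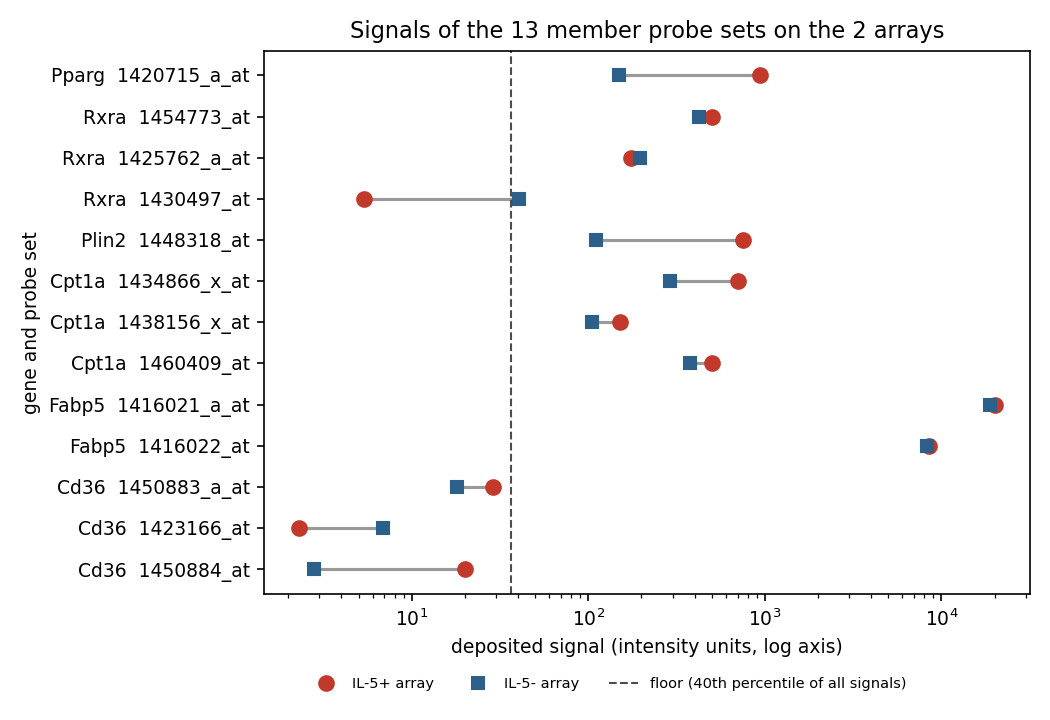
Deposited signal (intensity units, log axis) of each of the 13 probe sets on the IL-5+ array (circles) and the IL-5- array (squares), 1 row per gene and probe set; the dashed line is the floor of 36.3. The widest separations above the floor belong to Pparg and Plin2, the 2 arrays nearly coincide at Fabp5, and all 3 Cd36 probe sets lie left of the floor on both arrays.

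Pparg, the receptor itself, was measured by 1 probe set (1420715_a_at, entrez gene 19016), whose suffix marks probes shared by alternative transcripts of the gene. Its signal was 941.8 in IL-5+ cells and 149.4 in IL-5- cells. That is 6.30-fold higher in IL-5+ cells, a log2 ratio of 2.66, against an SD between probe sets of 0.40 at this brightness. Both signals exceeded the floor, by 25.9 times on the IL-5+ array and 4.12 times on the IL-5- array, so the ratio is not a bound. Of the 13133 genes, 0.0838% had a higher ratio. As the probe set does not separate transcripts, the share of each Pparg start site is not known from these data.

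Rxra, which encodes the dimer partner RXRα, did not show a like difference. Its brightest probe set (1454773_at, entrez gene 20181) gave 498.5 in IL-5+ cells and 422.6 in IL-5- cells, a log2 ratio of 0.24. The next (1425762_a_at) gave 173.4 in IL-5+ cells and 196 in IL-5- cells, a log2 ratio of -0.18. These probe sets disagree in sign, and both ratios are smaller than the SD of 0.40 between probe sets at this brightness. The third (1430497_at) was under the floor in IL-5+ cells, at 5.4, and just above it in IL-5- cells, at 40.4, which gives a bound of -0.15 on the log2 scale.

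Plin2, the lipid droplet coat gene, had the largest ratio of the 6. Its only probe set (1448318_at, entrez gene 11520) gave 750.9 in IL-5+ cells and 111 in IL-5- cells, 6.76-fold higher in IL-5+ cells (log2 ratio 2.76, SD between probe sets 0.40). The IL-5- signal was 3.06 times the floor. Pparg and Plin2 thus differed by nearly the same factor, with ratios of 2.66 and 2.76 that lie closer together than that SD. Each rests on a single probe set, so neither has a second measurement on these arrays.

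Cpt1a, the gate to mitochondrial fatty acid oxidation, was higher in IL-5+ cells at all 3 of its probe sets (entrez gene 12894), but by unequal amounts. The brightest by mean log2 signal, 1434866_x_at, gave 701.3 in IL-5+ cells and 291.4 in IL-5- cells, a 2.41-fold difference (log2 ratio 1.27). Its suffix marks probes that may also bind other transcripts. The second, 1460409_at, which does not carry such a suffix, gave 502.3 in IL-5+ cells and 374.8 in IL-5- cells, 1.34-fold (log2 ratio 0.42). The third, 1438156_x_at, gave 151.5 in IL-5+ cells and 105.5 in IL-5- cells, 1.44-fold (log2 ratio 0.52). The mean log2 ratio over the probe sets was 0.74 ± 0.46 (SD, n = 3 probe sets of 1 pair of arrays). The 2-fold call of Cpt1a therefore rests on 1 probe set. With the median of the 3 the log2 ratio was 0.52, and with the only probe set free of a suffix it was 0.42.

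Fabp5, the cytosolic fatty acid carrier, was bright in both fractions and nearly equal. Its probe set 1416021_a_at (entrez gene 16592) gave 20085.3 in IL-5+ cells and 18840.3 in IL-5- cells, a log2 ratio of 0.092. The other, 1416022_at, gave 8516 in IL-5+ cells and 8240.2 in IL-5- cells, a log2 ratio of 0.047. Both ratios are smaller than the SD of 0.19 between probe sets above a signal of 2000. Bright probe sets can be compressed near saturation, which would lower a ratio, and this was not tested for Fabp5.

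Cd36, the fatty acid receptor of the cell surface, was under the floor at all 3 probe sets (entrez gene 12491) on both arrays. Probe set 1450883_a_at gave 28.8 in IL-5+ cells and 18.1 in IL-5- cells, and 1450884_at gave 20 in IL-5+ cells and 2.8 in IL-5- cells. Probe set 1423166_at gave 2.3 in IL-5+ cells and 6.9 in IL-5- cells. The probe sets disagree in direction and none exceeds the floor, so no ratio is given. This does not show that the transcript is absent.

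**Figure D2:**
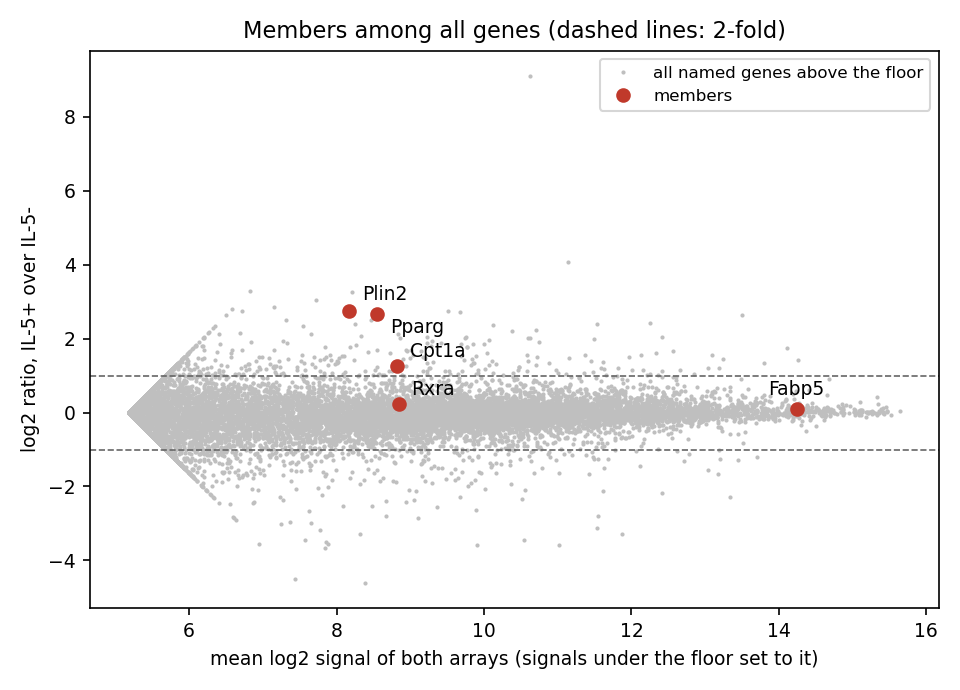
Log2 ratio of IL-5+ over IL-5- signal against the mean log2 signal of both arrays for all 13133 named genes above the floor on 1 or both arrays (grey) and the 5 members with a ratio (red, labelled), each gene at its brightest probe set; dashed lines mark 2-fold differences. Pparg (2.66) and Plin2 (2.76) lie at the upper edge of the cloud, Cpt1a (1.27) just above the upper line, and Rxra (0.24) and Fabp5 (0.092) inside it.

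The rest of the pathway was read from 7 lists of PPAR and lipid genes. Beside the members, these lists hold 103 genes, of which 89 had a named probe set and 73 were above the floor. Of the 73, 2 (2.74%) reached 2-fold in the higher and 2 (2.74%) in the lower direction in IL-5+ cells, beside 2.85% and 4.01% of all genes. Their median log2 ratio was -0.043, and that of all genes above the floor was -0.048. The large ratios of Pparg and Plin2 thus stood among lipid genes whose median lay close to that of all genes. The genes outside 2-fold were Acsl6 and Acsl4 on the higher side and Abcg1 and Lipe on the lower side.

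Among the receptors, Pparg was the only one of 7 measured PPAR, RXR and LXR genes with a 2-fold difference. Pparg was chosen with these signals in view, so nothing is read from its standing apart. The other PPAR genes were much closer to equal. Ppard, the widely expressed relative, gave 138.8 in IL-5+ cells and 152.6 in IL-5- cells (log2 ratio -0.14). Ppara, the receptor best known from liver, was dim, at 55.8 in IL-5+ cells and 44.8 in IL-5- cells (0.32). Rxrb, another possible dimer partner, gave 706.4 in IL-5+ cells and 790.1 in IL-5- cells (-0.16), so that neither Rxra nor Rxrb differed by more than the SD between probe sets. Rxrg was above the floor only in IL-5+ cells, at 42.2 against 22.7 in IL-5- cells (a bound of 0.22), and the oxysterol receptor gene Nr1h3 gave 41.5 in IL-5+ cells and 53.8 in IL-5- cells (-0.37). The median log2 ratio of the 5 receptors other than Pparg and Rxra was -0.14, and that of all 7 was 0.22, or -0.14 when each gene was read as the median over its probe sets.

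Coactivators and corepressors of nuclear receptors had 9 measured genes, a median log2 ratio of 0.023 and none at 2-fold. The coactivator gene Ncoa3 had the lowest ratio, with 704.1 in IL-5+ cells and 1222.8 in IL-5- cells (-0.80), and its other probe set gave -0.64. Nrip1, which encodes the corepressor RIP140, had the highest, with 4361.6 in IL-5+ cells and 2848.9 in IL-5- cells (0.61). Of its 6 probe sets, 5 lay between 0.61 and 0.98 and a dim one at -0.018. Ppargc1b, a coactivator of mitochondrial genes, stood at -0.41, and its better known relative Ppargc1a was under the floor on both arrays.

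Textbook PPAR target genes other than the members were mostly dim, and 6 of 13 with a probe set were under the floor on both arrays, including the adipocyte targets Fabp4, Lpl and Adipoq. The 7 measured ones had a median log2 ratio of -0.021, with 0 past 2-fold upward and 1 downward. That median depends on which dim genes enter: it was -0.41 with a floor at the 20th or 60th percentile of signals or with none, and -0.33 when a constant was added to every signal instead. The one lower in IL-5+ cells was Abcg1, a cholesterol exporter also driven by LXR receptors, with 130.4 in IL-5+ cells and 458.1 in IL-5- cells (-1.81). Its second probe set gave 25.2 in IL-5+ cells and 65.7 in IL-5- cells, a bound of -0.86. The related exporter gene Abca1 stood at -0.41 and Angptl4, which encodes an inhibitor of lipoprotein lipase, at 0.25. Abcg1 thus ran opposite to Pparg and Plin2. Gpd1, which supplies the glycerol backbone of triglycerides, was above the floor only in IL-5- cells, at 34.3 in IL-5+ cells against 57.5 in IL-5- cells.

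The other perilipin genes had smaller ratios than Plin2. Plin3, another droplet coat gene, gave 263.1 in IL-5+ cells and 373.1 in IL-5- cells (log2 ratio -0.50). Plin4 gave 86.7 in IL-5+ cells and 43.7 in IL-5- cells (0.99), at signals where the SD between probe sets is 0.51. That ratio was 1.05 to 1.07 with 3 other scalings of the arrays and 0.62 with an added constant. Plin5 was above the floor only in IL-5+ cells, at 51.1 against 32.2 in IL-5- cells (a bound of 0.49). The perilipins therefore ran in both directions. Of the 17 measured genes of droplet coat and triglyceride turnover, Plin2 included, the median log2 ratio was -0.016, with Plin2 past 2-fold upward and 1 gene downward. That gene was Lipe, which encodes hormone-sensitive lipase, at 37.1 in IL-5+ cells and 75.3 in IL-5- cells (-1.02), and it came under 2-fold with each of 3 other scalings (from -0.96 to -0.94) and with an added constant (-0.60), and it has no value with the floor at the 60th percentile. Hilpda, a hypoxia-induced inhibitor of lipolysis, gave 1584.8 in IL-5+ cells and 904.8 in IL-5- cells (0.81). The lipase gene Mgll stood at -0.80, with 2 more probe sets at -0.68 and -0.74 and a dim one at -0.0040. Dgat2, of the last step of triglyceride synthesis, stood at -0.71, and its second probe set at -0.53. Dgat1, of the same step, stood at -0.15 and the main triglyceride lipase gene Pnpla2 at -0.16, but their dimmer probe sets gave 0.42 for Dgat1 and 0.46 for Pnpla2, so neither has a settled direction. Abhd5, the activator of that lipase, stood at 0.25 and 0.45.

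Uptake, binding and activation genes, 13 of them measured and Fabp5 among them, had a median log2 ratio of -0.060, with 2 past 2-fold upward and 0 downward. Both of these genes encode acyl-CoA synthetases, which activate long-chain fatty acids for storage or oxidation. Acsl6 gave 3324.2 in IL-5+ cells and 890.1 in IL-5- cells (log2 ratio 1.90), and its other probe set gave 310.6 in IL-5+ cells and 89.9 in IL-5- cells (1.79). Acsl4, which prefers arachidonic acid, gave 6131.1 in IL-5+ cells and 2753.6 in IL-5- cells (1.15), and its other probe sets stood at 1.28 and 0.88. At the brightest probe sets these differences exceed the SD between probe sets at that brightness, 0.27 for Acsl6 and 0.19 for Acsl4. The dimmer probe sets also exceed theirs, 0.40 for Acsl6 and 0.27 for Acsl4. Of the other synthetase genes, Acsl5 stood at -0.14, and the 3 probe sets of Acsl3 ranged from -0.41 at the brightest to 0.52. Fabp3 stood at 0.10 and, at its other probe set, at -0.34. The fatty acid transporter genes Slc27a1 and Slc27a4 were at -0.32 and -0.060, and Fabp4 and Fabp7 were under the floor on both arrays.

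Among 18 measured genes of the carnitine shuttle and mitochondrial beta-oxidation, Cpt1a, at its brightest probe set, was the only one with a 2-fold difference. Cpt1a too was chosen with these signals in view, so nothing is read from that. The median log2 ratio of the list was -0.031. Slc25a20, the carnitine carrier of the next step, gave 1572.4 in IL-5+ cells and 1310.6 in IL-5- cells (0.26), and Cpt2, which takes carnitine off again, gave 282 in IL-5+ cells and 363.8 in IL-5- cells (-0.37), with a dimmer probe set at 0.28. The dehydrogenase gene Acadl had the largest ratio after Cpt1a, with 2293.9 in IL-5+ cells and 1401.8 in IL-5- cells (0.71). Hadhb, of the trifunctional protein, stood at 0.54 at its brightest probe set but at 0.12 and 0.092 at the others. The list as a whole showed no common direction, with 9 of 18 genes above 0 and 9 below. Peroxisomal oxidation genes (8 measured) had a median of -0.026 and none at 2-fold. The largest values at the brightest probe sets were a bound of 0.42 for Acox3, then -0.28 for Ehhadh and 0.20 for Acaa1a. The other probe sets of Acox3 (-0.49, a bound) and of Acaa1a (-0.42) had the opposite sign.

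**Figure D3:**
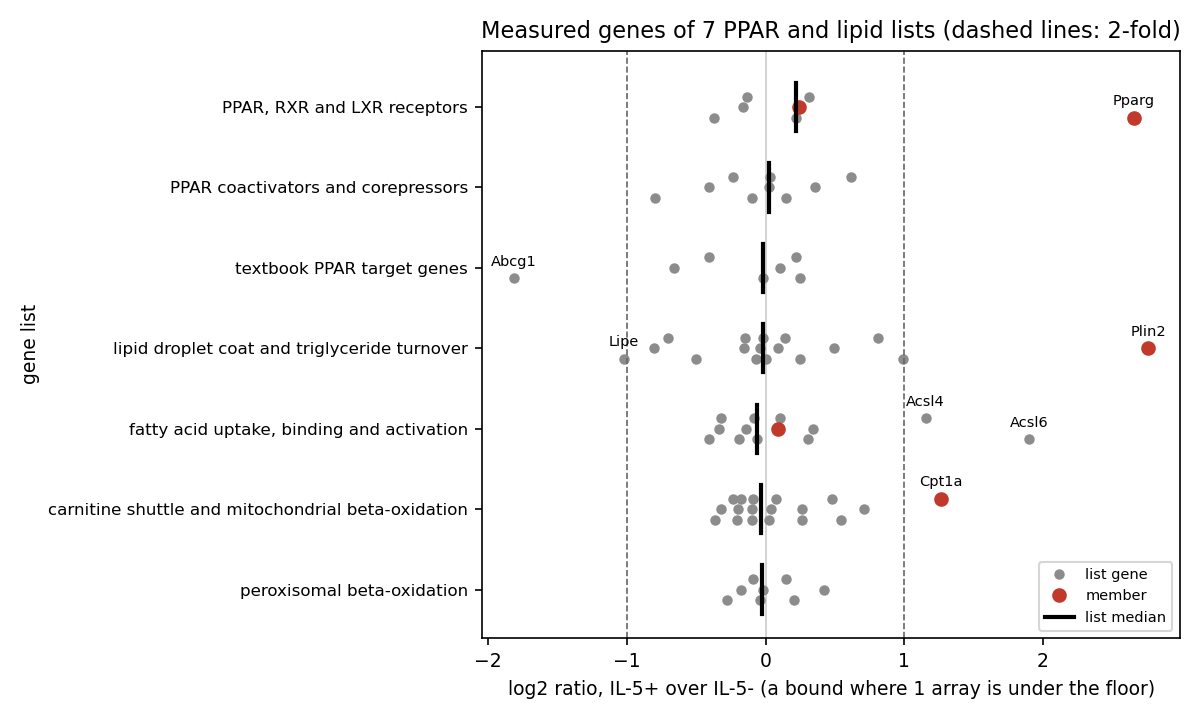
Log2 ratio of IL-5+ over IL-5- signal for each measured gene of the 7 PPAR and lipid lists (rows), with members in red, other genes in grey and the list median as a black bar; dashed lines mark 2-fold differences and genes beyond them are named. All list medians lie between -0.060 and 0.22, while Pparg, Plin2, Cpt1a, Acsl6 and Acsl4 lie beyond 2-fold on the right and Abcg1 and Lipe on the left.

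The labelled cell type was checked against marker genes. All 9 T cell markers with a probe set were above the floor, with signals from 454.5 (Cd4) to 9115.5 in IL-5+ cells and from 471 to 13553.4 in IL-5- cells. They summed to 56088.9 in IL-5+ cells and 67506.8 in IL-5- cells. Of the 9, 7 were lower in IL-5+ cells, most of all Cd3g (log2 ratio -0.71) and Cd3d (-0.57). The 2 higher ones were Thy1 (0.19) and Zap70 (0.10). The sorting marker Il5 gave 37084.8 in IL-5+ cells and 67.4 in IL-5- cells. The other Th2 markers were higher in IL-5+ cells as well, by 6.19-fold for Il13, 3.35-fold for Il4 and 1.67-fold for Gata3, the first close in size to Pparg. Macrophages and adipocytes are rich in Pparg, Plin2 and Cd36, so their markers are given beside these genes. Of 13 macrophage and monocyte markers, 6 exceeded the floor on at least 1 array, and the summed signal of the 13 was 415 in IL-5+ cells and 445.2 in IL-5- cells. The brightest were Csf1r, at 105.6 in IL-5+ cells and 124.5 in IL-5- cells, and Cd68, at 109.1 in IL-5+ cells and 75.8 in IL-5- cells. Of 5 adipocyte markers, 1 (Retn) exceeded it, and the 5 summed to 43.3 in IL-5+ cells and 115.5 in IL-5- cells, with Fabp4 at 15.5 in IL-5+ cells and 32.3 in IL-5- cells. Most markers of both types were under the floor, namely 7 of 13 and 4 of 5, and Csf1r and Cd68 ran in opposite directions. Dendritic cell markers (8 of 9 above the floor, H2-Ab1 and Cd74 brightest) summed to 677.2 in IL-5+ cells and 934.7 in IL-5- cells. Of these 8, 6 were lower and 2 higher in IL-5+ cells. At the brightest probe sets only H2-Aa was past 2-fold, at 51 in IL-5+ cells and 155.8 in IL-5- cells (log2 ratio -1.61). Further probe sets, above the floor only in IL-5- cells, gave bounds of -1.32 for H2-Aa and -1.05 for H2-Ab1. The brightest H2-Ab1 probe set stood at -0.68. Zbtb46 ran the other way, at 149.7 in IL-5+ cells and 79.1 in IL-5- cells (0.92). Its other probe sets above the floor stood at 0.67 and -0.33. Platelet markers (3 of 5, Itga2b and Gp5) summed to 341.1 in IL-5+ cells and 436.9 in IL-5- cells. Mast cell, basophil and eosinophil markers (2 of 10, Kit and Cpa3) summed to 216.2 in IL-5+ cells and 258 in IL-5- cells, and B cell markers (3 of 5, Ms4a1 and Cd22) to 132.4 in IL-5+ cells and 196.6 in IL-5- cells. The remaining 4 sums were higher on the IL-5+ array. Endothelial markers (3 of 6, Pecam1 and Kdr) summed to 423.9 in IL-5+ cells and 342.8 in IL-5- cells. Erythroid markers (2 of 5, Ermap and Klf1) summed to 152.8 in IL-5+ cells and 97.2 in IL-5- cells. CD8 T cell markers (Cd8b1 and Cd8a, both above the floor) summed to 347.1 in IL-5+ cells and 245.1 in IL-5- cells. NK cell markers (1 of 4) summed to 133.3 in IL-5+ cells and 51.1 in IL-5- cells. The 1 above the floor was Fcer1g, on the IL-5+ array only, at 61.4 in IL-5+ cells and 4.7 in IL-5- cells. Tyrobp and Ncr1, the brightest NK markers by mean log2 signal, were under the floor on both arrays. The sums include signals under the floor. Where most markers were under it, as for the adipocyte and NK cell markers, no direction is read from the sum. No marker was listed at 0, and the part of these cell types in the ratios of the members was not tested.

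The genes most like Pparg were those with the smallest distance to it in log2 signal over the 2 arrays, a likeness that rests on 2 points and on probe sets of unknown affinity. In order of distance they were Mmp13 (0.17), Serpinb9b (0.47), Slc17a6 (0.52), Lgals7 (0.55) and Anxa1 (0.64). Mmp13, a collagenase gene, gave 836.5 in IL-5+ cells and 148.4 in IL-5- cells. Anxa1, which encodes the phospholipid-binding annexin A1, gave 932.2 in IL-5+ cells and 232.5 in IL-5- cells. None of the 5 stands in the lipid lists.

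Under the other scalings, floors and choices of probe sets that were run, Pparg and Plin2 stayed more than 2-fold higher in IL-5+ cells wherever they had a value. Cpt1a kept its direction but not its 2-fold difference when other probe sets were used.

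**Figure D4:**
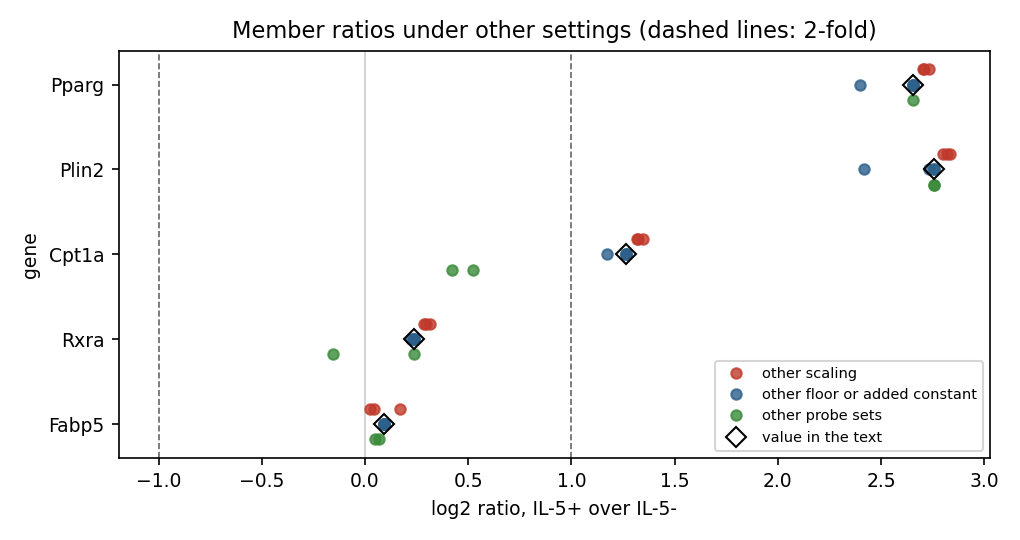
Log2 ratio of IL-5+ over IL-5- signal of the 5 members with a ratio under other scalings of the arrays, other floors or an added constant, and other choices of probe sets (points), with the value given in the text as an open diamond; dashed lines mark 2-fold differences. Pparg (2.40 to 2.73) and Plin2 (2.42 to 2.84) stay beyond 2-fold throughout, Cpt1a falls inside it with other probe sets, and Rxra takes either sign.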

How the data were processed

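RNA from 1 IL-5+ and 1 IL-5- sample was hybridised to Affymetrix arrays. The authors deposited a linear signal intensity for each probe set of an array. Per the submitters' processing notes it was made with GCOS, Affymetrix's scanner software, whose version, algorithm and scaling are not given in these sources, and the table holds no detection calls. The trimmed mean signals (2% off each end) were 496 in IL-5+ cells and 497 in IL-5- cells, so the arrays were used as deposited. Ratios are then relative to the rest of the array and do not show a change in total RNA.

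Probe sets were named from the platform annotation, in which 34945 had 1 gene symbol, 932 had several and 9160 were not listed. The entrez identifiers of 34741 of the named ones were found in the RefSeq gene table. Symbols were used as given, and list genes without a match by symbol or identifier were not analysed here. A gene's ratio comes from its brightest probe set by mean log2 signal. Signals under the floor of 36.3 were set to it, a gene above it on 1 array only has a bound, and the log2 ratio is IL-5+ over IL-5-. Cell type or list sums add the deposited signals of these probe sets, including those under the floor. Named were all 6 members, every list gene at 2-fold or more, the largest ratios of each list, the PPAR, RXR and LXR receptors, and the perilipins. Of each other cell type, the 2 brightest markers by mean log2 signal were named. A few further list genes and the markers Fcer1g, H2-Aa, Zbtb46, Cd3g, Cd3d, Thy1 and Zap70 were named after their values were seen. The members and lists were chosen with earlier results of these data known. Counting was tested on simulated arrays with differences planted in genes well above the floor. Their noise was smaller than the SD between probe sets here, so this checks the code and not the counts in these data. The number of arrays limits the precision. Alternatives were 3 other scalings, 3 other floors, an added constant, 2 other choices of probe sets and thresholds of 1.5-fold and 3-fold. Loess used statsmodels 0.14.6 and figures matplotlib 3.10.9, under Python 3.11.15 with pandas 2.3.3 and numpy 2.4.6.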

Additional observations from a re-analysis of the deposited data

How the results depend on the processing

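The log2 ratios of Pparg (2.40 to 2.73) and Plin2 (2.42 to 2.84) stayed above 1 in all alternatives that gave a value, the lowest with the added constant. Pparg has no probe set without a suffix, so it has no value in that choice. Cpt1a fell to 0.52 with the median of its probe sets and to 0.42 with only those that carry no _s_at, _x_at or _a_at suffix, and the number of members at least 2-fold higher fell to 2 and 1 in these choices, because Cpt1a and, in the second, Pparg drop out. Rxra ranged from -0.15 to 0.32 and Fabp5 from 0.025 to 0.17. Cd36 had values only under a floor at the 20th percentile or none (0.67) and under the added constant (0.26). The numbers of genes at least 2-fold higher and lower were 1325 and 1572 when the 20th percentile served as floor, 183 and 226 when the 60th did, 2058 and 2314 with no floor, 1036 and 1563 at a threshold of 1.5-fold, and 91 and 143 at 3-fold. Dividing each array by its median left 435 higher and 443 lower genes (49.5% higher, against 41.6%), and moved the median of all genes to 0.026. Of 63 list medians under the alternatives, 9 shifted by more than 0.1. The textbook target median was -0.41 with each other floor or none, -0.33 with the added constant and -0.21 with suffix-free probe sets, against -0.021. The receptor median, 0.22, became 0.051 with the higher floor and -0.14 with medians of probe sets. The uptake median was 0.092 with the higher floor, against -0.060, and the beta-oxidation median 0.078 with suffix-free probe sets, against -0.031. With the 3 other scalings the droplet list held 2 genes at least 2-fold higher and 0 lower, as Plin4 passed 2-fold and Lipe did not. With no floor, textbook targets held 2 higher and 5 lower genes, of which Abcg1 alone exceeds the floor of 36.3. No paired analysis was possible because each group has 1 array.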
